A study of Mus musculus with 2 samples.

Results

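The chromatin of the MHC class II genes, of Cd74 and of Ciita was examined in ATAC-seq peak lists from sorted colonic macrophages. ATAC-seq marks open DNA by the insertion of adapters by the Tn5 transposase. The set comprised 10 genes of the 49997 in the RefSeq table, namely H2-Aa, H2-Ab1, H2-Eb1, H2-DMa, H2-DMb1, H2-DMb2, H2-Oa, H2-Ob, Cd74 and Ciita. Its peaks were those overlapping the RefSeq span of a member or the 10 kb on either side (mm10), which gave 84 of 128737 WT peaks and 85 of 128129 Tle4cKO peaks. In RefSeq order along chromosome 17, the spans were H2-Oa at chr17:34092379-34095234, H2-DMa at chr17:34119693-34139101, H2-DMb2 at chr17:34143229-34151553, H2-DMb1 at chr17:34153191-34160229. Farther along lay H2-Ob at chr17:34238905-34245908, H2-Ab1 at chr17:34263227-34269418, H2-Aa at chr17:34282744-34287823, H2-Eb1 at chr17:34305867-34316674. The spans on other chromosomes were Cd74 at chr18:60803849-60812652 and Ciita at chr16:10480014-10531064. Windows of neighbouring members overlap, and each peak was counted once in these totals. The genes were chosen with earlier results of these data known, including that strong peaks at this cluster were found in 1 list only.

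Both groups were C57BL/6 males aged 18.9 weeks, and both carried Lyz2-Cre, a Cre recombinase driven from the myeloid gene Lyz2. The WT group carried Lyz2-Cre alone, and the Tle4cKO group carried Tle4f/f Lyz2-Cre, which removes the corepressor gene Tle4 in cells where the Cre is active. The sorting gate took CD64-positive cells with low Ly6C and without Siglec-F, and each library pooled 2 mice, so that there was 1 library per genotype. No value below therefore has a replicate check or a test between genotypes.

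MHC class II molecules present peptides from the endosomal pathway to CD4 T cells. H2-Aa and H2-Ab1 encode the chains of I-A, and H2-Eb1 encodes the beta chain of I-E. The invariant chain Cd74 occupies the groove of new class II molecules, H2-DM exchanges its remnant for peptide, and H2-O restrains H2-DM. Ciita, the class II transactivator, is recruited to class II promoters by RFX, CREB and NF-Y, which bind the conserved X and Y boxes. Resident macrophages of the gut are known for high class II expression.

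The promoter windows of 6 members held a common arrangement of these boxes, and neither window of H2-DMa did. The H2-DMa windows belonged to start sites at chr17:34122832 and chr17:34125518. The rest of that gene, with its peaks farther along, was not searched, so its lack of the arrangement elsewhere was not tested. Each stretch below lies upstream of the RefSeq start site (GRCm38.p6, the assembly behind mm10), is written 5′ to 3′ along the gene, and has in capitals the Y box core ATTGG bound by NF-Y and, before it, the RFX-type core GCAAC, AACNGATG or both overlapping.
H2-Aa: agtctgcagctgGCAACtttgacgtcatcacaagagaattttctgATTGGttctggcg
H2-Eb1: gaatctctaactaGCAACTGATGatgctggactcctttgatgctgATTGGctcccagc
H2-DMb1: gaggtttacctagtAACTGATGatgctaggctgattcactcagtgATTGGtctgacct
H2-DMb2: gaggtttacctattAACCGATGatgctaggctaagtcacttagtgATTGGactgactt
H2-Oa: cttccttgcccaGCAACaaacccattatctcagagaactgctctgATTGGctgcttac
H2-Ob: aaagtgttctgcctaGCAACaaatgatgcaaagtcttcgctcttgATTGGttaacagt
The stretches lie at chr17:34287859-34287916 on the minus strand for H2-Aa and, on the plus strand, at chr17:34305763-34305820 for H2-Eb1, chr17:34153085-34153142 for H2-DMb1, chr17:34145114-34145171 for H2-DMb2, chr17:34092291-34092348 for H2-Oa and chr17:34238803-34238860 for H2-Ob.

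Cores were marked only where 15 to 30 bases lay between them, so the search itself confined the spacing. There were 22 bases in H2-Eb1, 23 in H2-DMb1 and H2-DMb2, 25 in H2-Ob and 28 in H2-Aa and H2-Oa. In H2-Eb1, H2-DMb1 and H2-DMb2 the count started at the end of AACNGATG, in the others at that of GCAAC. RefSeq promoter windows, which run from 250 bases before to 50 after a start, were matched for 7 of the 10 members, with 8 windows since H2-DMa has 2. Searched on both strands, GCAAC followed on the same strand by ATTGG with 15 to 30 bases between stood in 4 of the 8 member windows and in 0.834% of all 32851 windows. AACNGATG followed by ATTGG at the same spacing, a pattern chosen after the sequences were seen, stood in 3 of the 8 and in 0.0183% of all windows, which is 6 windows. The single cores are common, with ATTGG in 37.4% of all windows and 7 of the 8, and GCAAC in 35.2% and 5 of the 8. TGACGTCA, the full CREB site, stood in the H2-Aa window and in 1.79% of all. The STAT motif TTCNNNGAA stood in that of H2-DMb2 and in 8.30% of all, and the PU.1 motif GAGGAAGT in none of the member windows and 3.20% of all.

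These X and Y box stretches lay in open chromatin in both genotypes, apart from H2-Oa. At H2-Aa the ATTGG lay in a peak that reached 171 in WT and 162 in Tle4cKO, 75 and 61 bases from the summit. Pileup is the authors' value at the summit of each peak, and the summit is the position of its highest signal. At H2-DMb1 the pileups were 113 and 88, with summits 119 and 126 bases away. At H2-DMb2 they were 60 and 51, at 174 and 187 bases. At H2-Eb1 they were 179 and 164, at 269 and 137 bases. At these 4 promoters both lists thus had their summit close to the Y box. At H2-Ob, with pileups of 126 and 95, the summit was farther away, at 1209 and 1191 bases inside the gene. At H2-Oa the WT peak, with a pileup of 81, covered the ATTGG, and the Tle4cKO peak, with a pileup of 57, began 6 bases beyond it.

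The class II loci were among the more open regions of both libraries. Their peaks had a median pileup of 87 in WT and 53 in Tle4cKO, against 28 and 20 over all peaks. A strong peak is one at or above the upper quartile of its own list, 67 in WT and 47 in Tle4cKO. Of the member peaks, 64.3% (95% Wilson interval 53.6% to 73.7%) were strong in WT and 58.8% (48.2% to 68.7%) in Tle4cKO. The highest was the peak at chr17:34257185-34258947 in the window of H2-Ab1, with pileups of 228 and 188, and neighbouring peaks share the locus and are not independent. Intervals here and below cover counting error only. Those of shares treat peaks as independent, and those of ratios treat summit pileups as read counts. The sources used here establish neither. In pooled cells, fewer cells of a type and less open chromatin per cell cannot be told apart.

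Most accessible regions of these loci were found in both genotypes. Of 88 regions formed by overlapping peaks of either list, 60 had 1 peak in each list, 9 were WT-only and 10 were Tle4cKO-only, meaning that no peak of the other list overlapped by 1 bp. In WT 9 of 84 peaks were WT-only (10.7%, 5.74% to 19.1%), beside 27.1% of all WT peaks. In Tle4cKO 10 of 85 were Tle4cKO-only (11.8%, 6.52% to 20.3%), beside 23.5% of all Tle4cKO peaks. The part of peak height in these shares was not tested. Member peaks covered 76.0 kb in WT and 72.9 kb in Tle4cKO, 95.8% of the WT length, where over the whole lists the Tle4cKO peaks covered 88.1%.

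Among strong peaks the list-only share was high in both directions. Of 54 strong WT peaks, 5 were WT-only (9.26%, 4.02% to 19.9%), beside 0.518% of all strong WT peaks. Of 50 strong Tle4cKO peaks, 3 were Tle4cKO-only (6.0%, 2.06% to 16.2%), beside 0.313%. Because such peaks were known when the genes were chosen, these shares describe the loci and support nothing further. All 8 lay in 3 places, namely upstream of H2-Aa, inside H2-Eb1 and in the 10 kb beyond Cd74.

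**Figure D1:**
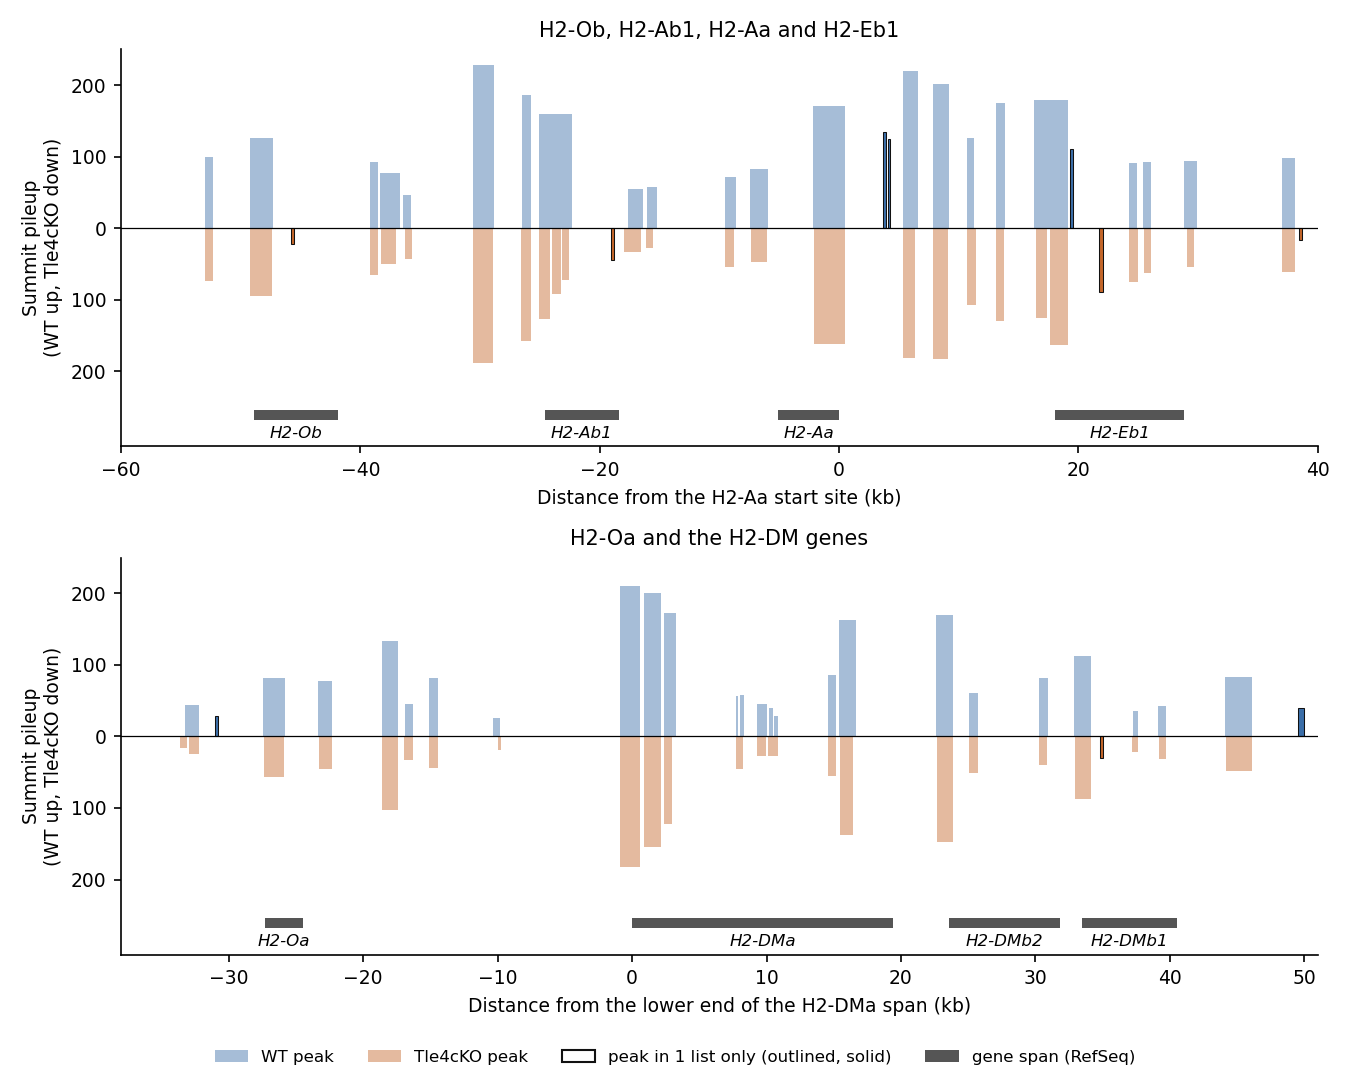
Peaks at the class II genes of chromosome 17, drawn to scale by position (kb from the H2-Aa start site above, from the lower end of H2-DMa below) and summit pileup, WT upwards and Tle4cKO downwards. Peaks in 1 list only are outlined; the WT-only peaks of 135 and 125 stand alone above H2-Aa, and the WT peaks over H2-Ab1 and H2-Eb1 face 3 and 2 Tle4cKO peaks.

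At H2-Aa, the alpha chain of I-A, the promoter was kept and the upstream flank differed. The peak across the start site (chr17:34285658-34288294 in WT) was 2637 bp wide in WT and 2586 bp in Tle4cKO, with summits 14 bp apart. Its pileup ratio, Tle4cKO over WT, was 0.947 (95% Clopper-Pearson interval 0.759 to 1.18), and the median ratio of all peak pairs of like summed pileup was 0.823, inside that interval. Upstream of the start site, WT alone held peaks of 135 at chr17:34291506-34291724 and of 125 at chr17:34291873-34292088. They lay 3683 and 4050 bp from the gene and 148 bases from each other. The nearest Tle4cKO peak was 1478 and 1114 bases away, so neither adjoined another region. A list-only peak is said to adjoin where a peak of the other list, or a peak of its own list that is shared, lies within 500 bp. The next peak outwards was shared, with pileups of 219 and 182, and so was the one after it, with 201 and 183.

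Both of those WT-only peaks were narrow for their height. They were 219 and 216 bp wide, where WT peaks of like pileup (within 10%, a comparison chosen after the widths were seen) had a median width of 1289 and 1226 bp. Their widths were at the 0.0348th and 0.0510th percentile of those peaks. The same was seen at H2-Eb1, where the WT-only peak of 111 at chr17:34307116-34307329 was 214 bp wide against a median of 1135 bp.

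At H2-Eb1, the beta chain of I-E, each list held 1 strong peak that the other lacked. The promoter region (chr17:34304121-34306939) was 1 WT peak of 2795 bp with a pileup of 179. In Tle4cKO it was split into 2 peaks, of 125 and 164, which covered 2453 bp. The WT-only peak of 111 lay 200 bases beyond the WT peak and 176 bases from the nearer Tle4cKO peak, so it adjoined this split region. The Tle4cKO-only peak of 89 at chr17:34309505-34309856, also inside the gene, lay 2175 bases from any WT peak and adjoined none. It was 352 bp wide, at the 0.666th percentile of Tle4cKO peaks of like pileup. Farther along the gene, shared peaks had pileups of 91 and 75, 93 and 63, and 94 and 54 in WT and Tle4cKO. In the flank, a weak Tle4cKO-only peak of 17 adjoined a shared one.

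**Figure D2:**
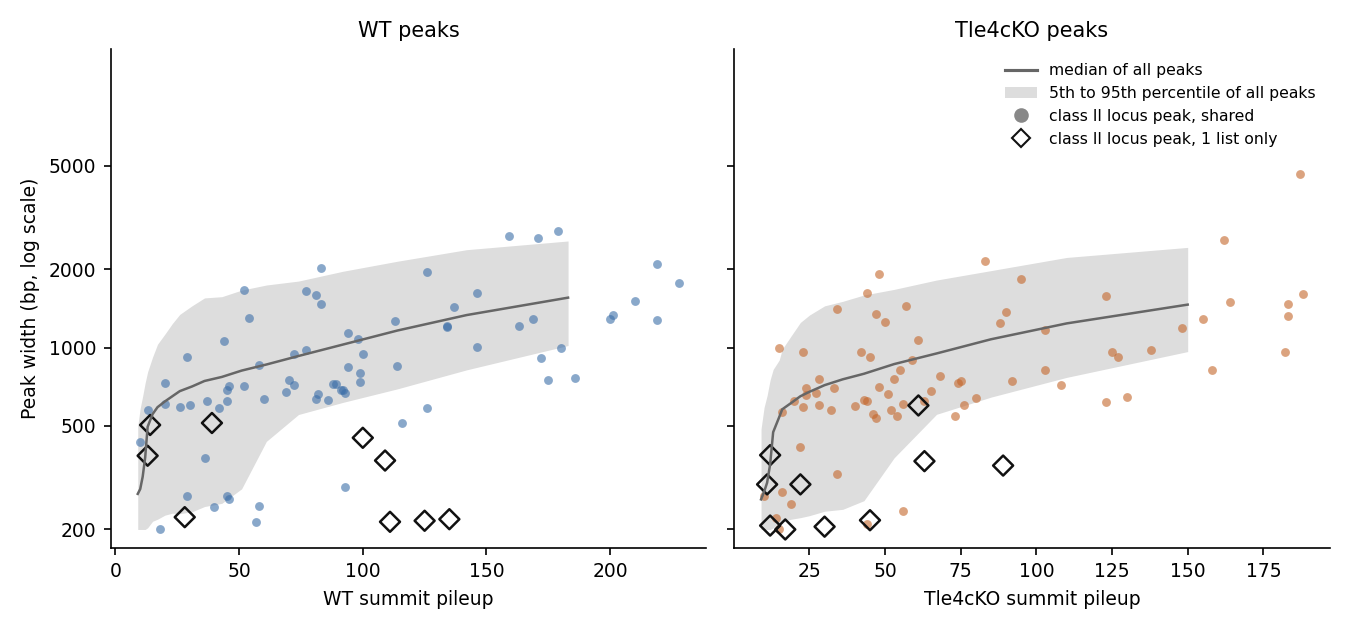
Width (bp, log scale) against summit pileup for WT peaks (left) and Tle4cKO peaks (right) at the class II loci; the line and band are the median and the 5th to 95th percentile of all peaks of the list in bins of pileup. Shared peaks are dots and list-only peaks diamonds; the WT-only peaks of 111, 125 and 135 lie far below the band.

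Narrow strong peaks were rare in both libraries and often in 1 list only. Over the whole lists, 326 of 32410 strong WT peaks (1.01%) were at most 400 bp wide, a limit chosen after the widths were seen. Of these, 31.6% (26.8% to 36.8%) were WT-only, against 0.203% of wider strong WT peaks. In Tle4cKO 680 of 32618 (2.08%) were as narrow, and 11.8% (9.56% to 14.4%) of them were Tle4cKO-only, against 0.0689% of wider ones. At the class II loci 5 of the strong WT peaks were this narrow and 4 of them were WT-only, and 3 of the strong Tle4cKO peaks, of which 2 were Tle4cKO-only. Narrow width thus went with presence in 1 list across the genome, and its part in the differences at H2-Aa and H2-Eb1 was not tested.

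At H2-Ab1, the beta chain of I-A, the lists differed in how 1 region was divided. The promoter region (chr17:34262754-34265461) was 1 WT peak of 2682 bp with a pileup of 159. In Tle4cKO it was 3 peaks of 127, 92 and 73, which covered 2208 bp. The highest summits of the region lay 10 bp apart, and their ratio was 0.799 (0.628 to 1.01), beside 0.795 in pairs of like pileup. The peaks before it, at chr17:34261287-34262047 with 186 and 158 and at chr17:34257185-34258947 with 228 and 188, were shared. A Tle4cKO-only peak of 45 and 217 bp lay at the other end of the gene, at chr17:34268758-34268974, 1178 bases from a WT peak. In the flank the pair at chr17:34271730-34272588 was among the lowest of all members in Tle4cKO, with pileups of 58 and 28 and a ratio of 0.483 (0.296 to 0.770), beside 0.673 in pairs of like pileup.

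Cd74, which encodes the invariant chain, had its promoter region divided the other way. Over chr18:60802930-60807744, across a gene end and into the gene, WT held 3 peaks of 219, 146 and 180 covering 4107 bp. Tle4cKO held 1 peak of 4649 bp with a pileup of 187. The ratio of the highest summits was 0.854 (0.699 to 1.04), equal to the 0.854 of like pairs, and they lay 311 bp apart. A region that was joined in WT and split in Tle4cKO at H2-Ab1 and H2-Eb1 was thus split in WT and joined in Tle4cKO here.

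Beyond Cd74, inside the neighbouring gene Tcof1, the lists held different peaks side by side. WT alone had peaks of 100 at chr18:60815402-60815851 and of 109 at chr18:60816463-60816830. Tle4cKO alone had peaks of 63 at chr18:60817451-60817816 and of 61 at chr18:60818478-60819076. The inner WT-only and Tle4cKO-only peaks were 620 bases apart. All 4 were strong and narrower than the median of their like, with widths of 450, 368, 366 and 599 bp against medians of 1065, 1123, 921 and 909 bp. The last adjoined a shared peak, with pileups of 93 and 56, and the other 3 adjoined none. On the Cd74 side of these, the shared peak at chr18:60811987-60812498, inside the gene at its upper end, had 116 and 80. The shared one at chr18:60813034-60814469, just beyond the gene, had 137 and 90.

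**Figure D3:**
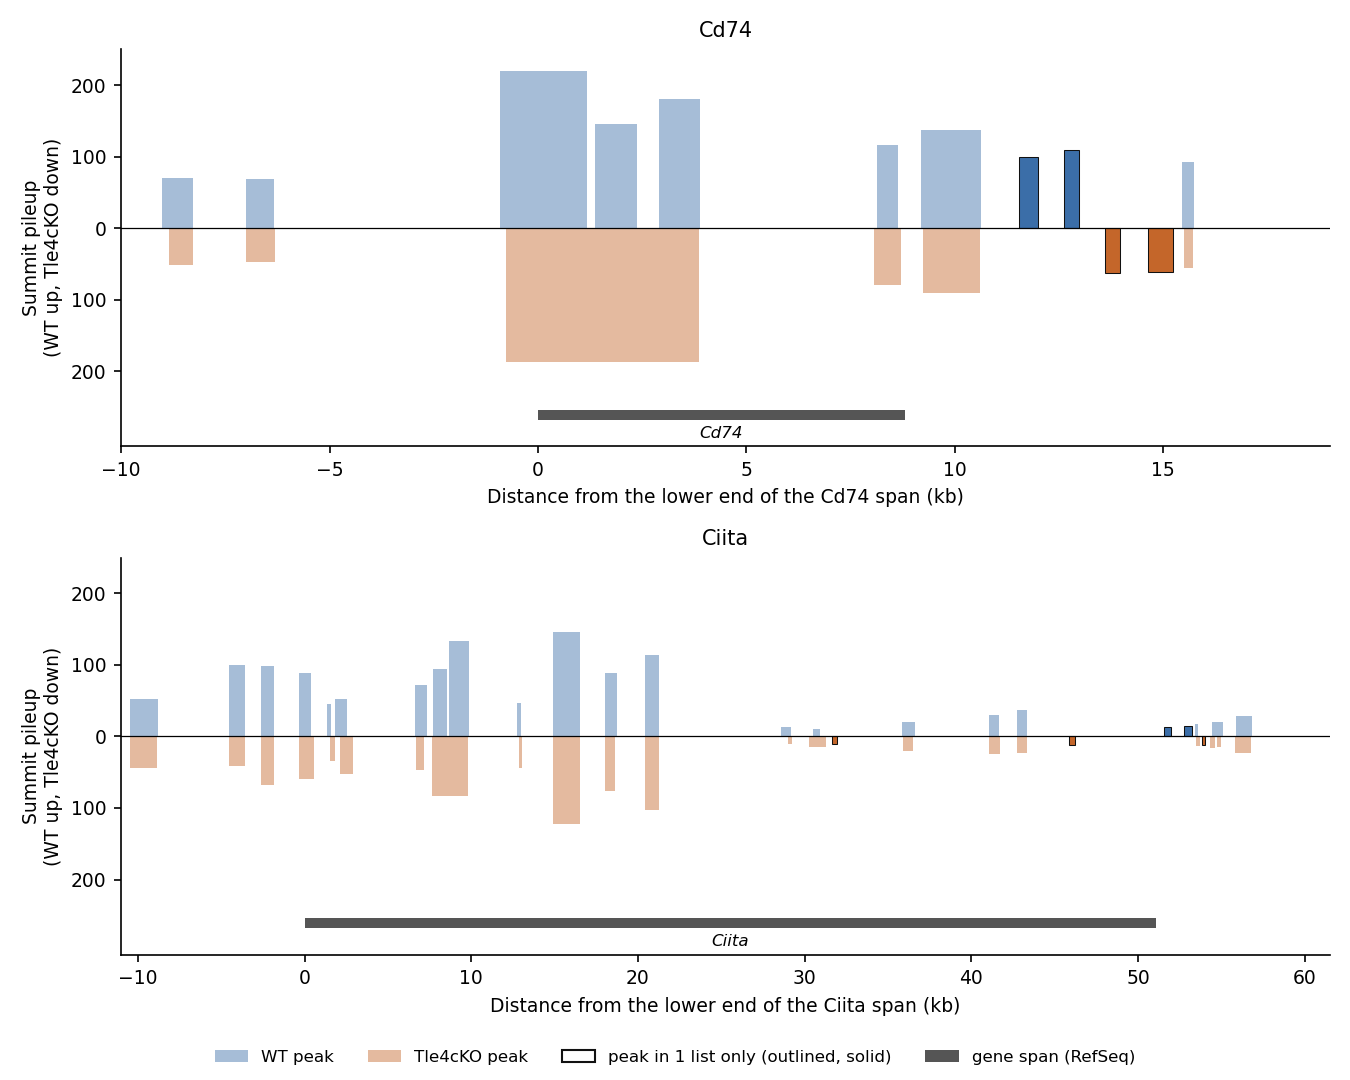
Peaks at Cd74 and Ciita by distance from the lower end of each gene span (kb) and summit pileup, WT upwards and Tle4cKO downwards, with list-only peaks outlined. Over Cd74, 3 WT peaks face 1 Tle4cKO peak of 4649 bp, followed to the right by 2 WT-only and 2 Tle4cKO-only peaks; at Ciita the list-only peaks are all at most 14.

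Of the peptide exchange genes, H2-DMa held no list-only peak among 13 WT and 11 Tle4cKO peaks, beside 27.1% and 23.5% of all peaks. Its strongest peaks, at chr17:34118806-34120311 with 210 in WT and 183 in Tle4cKO and at chr17:34120547-34121836 with 200 and 155, lay where its RefSeq span overlaps Brd2, a bromodomain gene, so they cannot be assigned to 1 of these genes. Inside H2-DMa alone, the peak at chr17:34135112-34136319 had 163 and 138. At 2 weaker places in the gene, 2 WT peaks faced 1 Tle4cKO peak, with highest pileups of 58 and 46 and of 40 and 28. These are splits of the kind seen at Cd74.

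At H2-DMb2 and H2-DMb1, which encode beta chains of H2-DM, each strong WT peak overlapped a Tle4cKO peak. Over the whole list only 0.518% of strong WT peaks overlapped none. At the lower end of H2-DMb2 the peak at chr17:34142312-34143595 had 169 and 148, and the one at the start site of its RefSeq promoter window, whose stretch is printed above, had 60 and 51. The lowest relative value of the H2-DM genes was at chr17:34149973-34150606 in H2-DMb2, with 81 and 40 and a ratio of 0.494 (0.329 to 0.730), beside 0.700 in like pairs. Its Tle4cKO peak was below the limit of 47 for strong peaks. At H2-DMb1 the promoter ratio was 0.779 (0.583 to 1.04), beside 0.741. The 2 list-only peaks were weak, a Tle4cKO-only one of 30 and 205 bp inside H2-DMb1 and a WT-only one of 39 in its flank. Neither adjoined another region.

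The genes of H2-O, known from B cells and some dendritic cells, were also open here. H2-Ob had 126 in WT and 95 in Tle4cKO at its gene-end peak, and H2-Oa 81 and 57. Their ratios were 0.754 (0.572 to 0.992) and 0.704 (0.492 to 0.9998), each equal to the median of like pairs at 3 significant digits. The peak at H2-Oa also overlaps the gene BC051537, so it cannot be assigned to H2-Oa alone. The flank pair at chr17:34086433-34087493, given next, overlaps BC051537 too. In the flank of H2-Oa the pair at chr17:34104621-34105282 had 82 and 44 and the pair at chr17:34086433-34087493 had 44 and 24. Relative to pairs of like pileup both were lower in Tle4cKO, by 0.39 and 0.32 on the log2 scale. Their ratio intervals, 0.363 to 0.783 and 0.317 to 0.917, held the 0.703 and 0.683 of like pairs. In the flank of H2-Ob the pair at chr17:34251372-34252082, with 46 and 43, was relatively higher. Its interval, 0.602 to 1.45, held the 0.692 of like pairs. The list-only peaks were a WT-only one of 28 near H2-Oa and a Tle4cKO-only one of 22 inside H2-Ob.

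Ciita, on chromosome 16, held the lowest and the highest relative values of the set. The lowest was a pair in its flank at chr16:10475497-10476438 with 100 in WT and 42 in Tle4cKO. Its ratio of 0.420 (0.286 to 0.608) had an interval that excluded the 0.709 of like pairs, and the summits lay 10 bp apart. It was the 1 such pair among 69 (1.45%), and 1.30% of all pairs were of this kind, so the share is near that of the lists as a whole. The highest was a weak pair at chr16:10510496-10510927 with 10 and 15, whose interval, 0.630 to 3.73, is wide.

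Of the 19 Ciita pairs, 4 (21.1%) were relatively higher in Tle4cKO, beside 12.1% of all pairs, and 1 (5.26%) was lower, beside 12.9%. These shares are not matched for pileup, and weak pairs spread more widely. In all 4 higher pairs the counting interval held the ratio of like pairs. At its lower end the peak at chr16:10479705-10480427 had 89 and 59. Inside the gene the strongest peak, at chr16:10494939-10496557, had 146 and 123, and the one at chr16:10500442-10501288 had 114 and 103. At chr16:10487689-10489905, 2 WT peaks of 94 and 134 faced 1 Tle4cKO peak of 2155 bp and 83, with the higher summits 3 bp apart and a ratio of 0.619 (0.465 to 0.821), beside 0.754. Pairs at chr16:10481845-10482555, with 52 and 53, and at chr16:10492748-10493008, with 46 and 44, were relatively higher in Tle4cKO, as was the weak pair at chr16:10515874-10516605, with 20 and 20. The 2 WT-only and 3 Tle4cKO-only peaks had pileups of 11 to 14. Which of these peaks belong to the alternative promoters of Ciita was not analysed here, since strand and exons were not used.

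Over all members, 69 reciprocal pairs were formed, in which each peak is the highest overlapping peak of the other. The median ratio was 0.754, beside 0.741 over all 92335 pairs, and 66 pairs had the higher pileup in WT, 1 had equal values and 2 had the higher in Tle4cKO. Over all pairs, 83815 were higher in WT, 2434 equal and 6086 higher in Tle4cKO, so most pairs of either set lean the same way. Any scaling between the libraries is not given in the sources used here, so ratios were read relative to pairs of like summed pileup. On that scale the median log2 ratio was 0.00 and ran from -0.76 to 0.83. Relative to like pairs, 5 of 69 (7.25%) were higher in Tle4cKO by more than 0.32 on the log2 scale, beside 12.1% of all pairs, and 5 (7.25%) were lower, beside 12.9%. Centred on the median of all pairs instead, 6 were higher and 9 lower, beside 12.2% and 15.8% of all pairs. Among pairs at or above the members' median summed pileup of 142, 0 of 35 were higher and 1 was lower, beside 1.49% and 1.86% of all pairs that high. These shares were close to those of other peaks of their height.

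**Figure D4:**
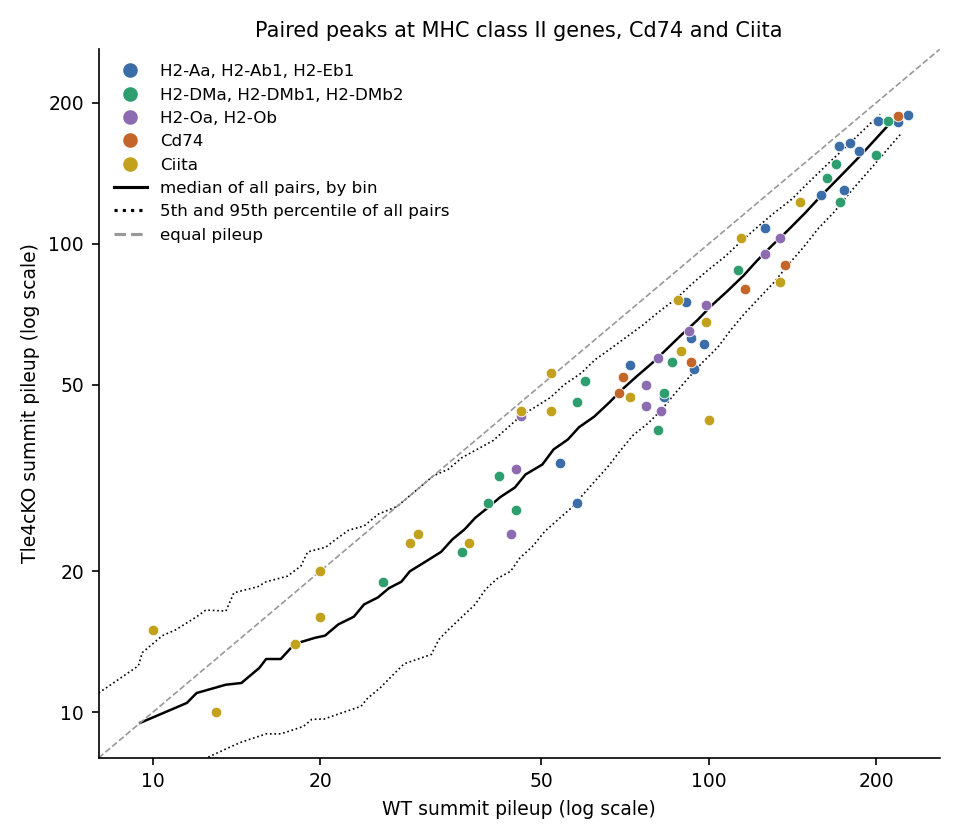
Summit pileup of the 69 paired peaks in Tle4cKO against WT (both on log scales), coloured by gene group, with the median and the 5th and 95th percentile of all 92335 pairs by bin of summed pileup. Most points follow the median line below equality. The Ciita flank pair of 100 and 42 lies lowest relative to that line.

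By role the medians were close to each other. The median relative log2 ratio was -0.04 over 17 pairs of the classical chains, 0.03 over 16 of H2-DM, 0.00 over 11 of H2-O, -0.06 over 6 of Cd74 and 0.16 over 19 of Ciita. By gene it ran from -0.13 at H2-Oa to 0.16 at Ciita. The raw ratios of the strongest gene-end peaks were highest at H2-Aa, at 0.947, and H2-Eb1, at 0.916 (0.737 to 1.14), and lowest at Ciita, at 0.663 (0.469 to 0.932). In this order neighbours differed by less than their counting intervals, and Ciita was at 0.709 in like pairs, which have lower pileups.

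**Figure D5:**
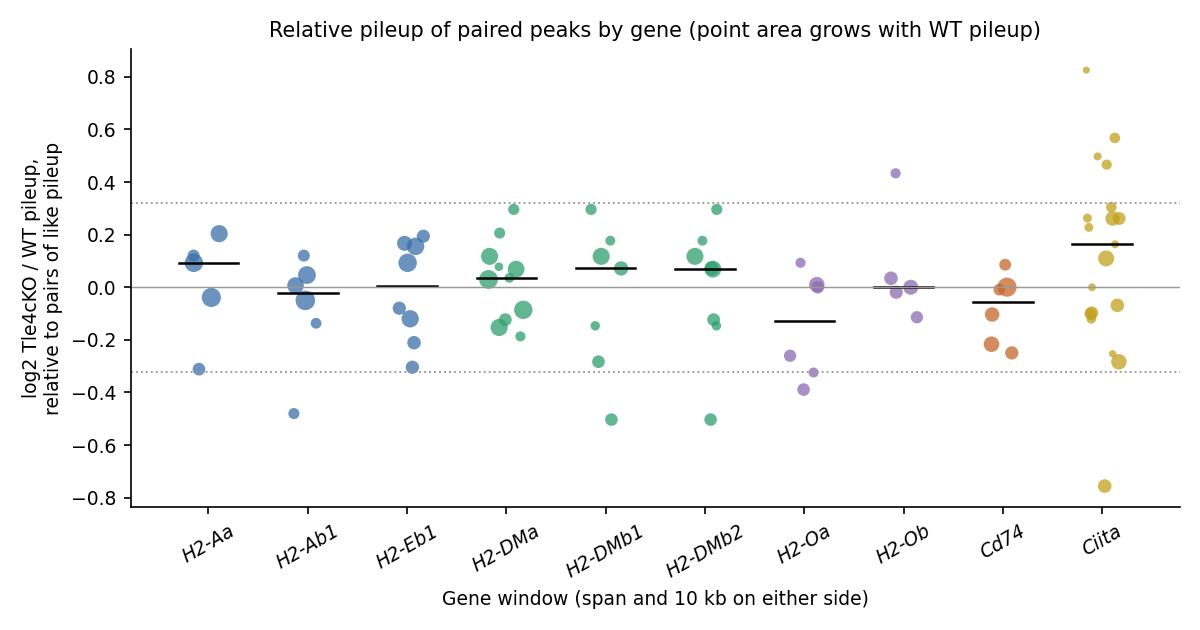
Log2 ratio of Tle4cKO to WT pileup relative to pairs of like pileup, for each pair in the window of each gene; bars are medians, dotted lines mark 0.32 on the log2 scale and point area grows with the WT pileup. Pairs in overlapping windows appear under each gene; medians run from -0.13 at H2-Oa to 0.16 at Ciita, where the spread is widest.

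Widths and summits of the pairs also resembled the whole lists. The WT peak was the wider in 49 of 69 pairs (71.0%), beside 69.5% of all pairs, and the median width ratio was 0.970, beside 0.931. Summits were at most 50 bp apart in 39 pairs (56.5%), beside 53.5%, with a median of 35 bp and a largest distance of 435 bp. Member pairs were higher than all pairs, with median WT pileups of 86 and 43. Among pairs at or above the members' median summed pileup, 74.3% of member pairs and 74.2% of all pairs had summits that close. In these the WT peak was the wider in 77.1% and 71.7%. Regions were also divided differently. Of the member peaks, 5 WT peaks (5.95%) overlapped 2 or more Tle4cKO peaks, beside 4.27% of all WT peaks. In the other direction 5 Tle4cKO peaks (5.88%) overlapped 2 or more WT peaks, beside 1.19% of all Tle4cKO peaks. Each of these member shares rests on 5 peaks.

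Of the 19 list-only peaks, 6 adjoined a shared or split region. These were 2 of 9 WT-only peaks, at H2-Eb1 and in the flank of Ciita, and 4 of 10 Tle4cKO-only peaks, 2 at Ciita, 1 in the flank of H2-Eb1 and 1 beyond Cd74. The share over the whole lists was 16.5% in WT and 15.5% in Tle4cKO, and 32.7% and 46.1% among strong list-only peaks. Among the 8 strong list-only peaks of the members it was 1 of 5 in WT and 1 of 3 in Tle4cKO. Inside gene spans lay 1 WT-only peak, of 111 at H2-Eb1, and 6 Tle4cKO-only peaks. The latter had pileups of 11 and 12 at Ciita, 89 at H2-Eb1, 45 at H2-Ab1, 22 at H2-Ob and 30 at H2-DMb1. Of these only the one at H2-Eb1 was strong. The other 8 WT-only and 4 Tle4cKO-only peaks lay in flanks. The list-only share inside all gene spans was not computed, so these counts have no share of the lists beside them.

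Other genes of the class II pathway were set beside the members. They include the further class II genes H2-Ea and H2-Eb2, and the window of H2-Eb2 shares peaks with that of H2-Eb1, so the sets are not separate. The 26 genes held 66 WT-only peaks among 296 (22.3%) and 54 Tle4cKO-only peaks among 290 (18.6%), beside 27.1% and 23.5% of all peaks, and of their strong peaks 0 of 113 were WT-only and 1 of 118 Tle4cKO-only. Their 225 pairs had a median relative log2 ratio of 0.05, with 21 higher and 17 lower past the same limit that 12.1% and 12.9% of all pairs passed.

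Among the promoter-binding factors, the RFX subunit gene Rfxank held 1 WT-only peak among 4 and no Tle4cKO-only one among 3. Rfx5 held 0 of 2 and 1 of 3. Over the whole lists the shares were 27.1% and 23.5%. Of the NF-Y genes, Nfya held 3 of 9 and 1 of 7 and Nfyb 1 of 4 and 3 of 6. Creb1, whose product binds the X2 box, held 3 of 16 and 2 of 14. In the interferon-gamma response, which induces Ciita, Jak2 held 11 of 19 and 3 of 12 and Jak1 8 of 35 and 6 of 33. The list-only peaks of Jak2 had pileups of 8 to 18. These genes were picked for the largest difference in list-only counts within their role.

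Among the myeloid factors, Spi1, which encodes PU.1, held 3 of 18 and 2 of 17, and Irf4 0 of 9 and 0 of 9. The WT-only peaks at Spi1 had pileups of 55 to 66, just under the limit for strong peaks, and the Tle4cKO-only ones 15 and 18. Of the lysosomal genes, Ctsd had 4 of 12 peaks in Tle4cKO alone and 0 of 8 in WT alone. Ctsb, which encodes a protease, had 4 of 15 and 1 of 12. The list-only peaks of both genes had pileups of 10 to 25. Marchf8, a ubiquitin ligase gene, held 5 WT-only peaks of 10 and 2 Tle4cKO-only peaks of 7. Marchf1, which encodes the ligase that turns over class II, held 10 WT-only peaks of 30 and 12 Tle4cKO-only peaks of 34. The 1 strong peak lay at Ifngr1, a Tle4cKO-only peak of 49. Of the 120 list-only peaks of these genes, 23 had a pileup of at least 20.

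Markers of the sorted cells and of other class II-bearing cells were checked at their gene ends. All 7 macrophage markers, among them Csf1r, Adgre1 and Fcgr1, had a gene-end peak in both lists, with summed highest pileups of 940 in WT and 748 in Tle4cKO. Of 7 dendritic cell markers 6 had one in each list, with sums of 581 and 471, and Itgae had none. All 6 B cell markers had one, with sums of 346 and 198. T cell markers had 4 of 6 in WT and 3 of 6 in Tle4cKO, with sums of 341 and 262, and epithelial markers 4 of 6 in each, with sums of 268 and 198. Single markers varied within each set. In WT and Tle4cKO macrophage markers ran from 55 to 202 and from 33 to 166. The highest of the other sets were 182 and 155 (dendritic cell), 153 and 71 (B cell), 144 and 126 (T cell) and 119 and 92 (epithelium). The sums therefore do not rank the cell types. Open gene ends are not expression, and the part of other cells in the class II peaks was not tested.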

How the data were processed

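ATAC-seq was deposited as 1 peak list per library, from 1 WT and 1 Tle4cKO library. Per the file headers, peaks are given with their span, length, absolute summit and pileup. The pileup deposited by the authors is a coverage signal of 7 or more, in whole numbers, and coordinates count from 1. The submitters' processing notes list, with no roles, mm10 and the tools MACS2 2.1.1, HOMER 4.7.2, Bowtie2 2.2.5, edgeR 3.28.1, cutadapt 1.14 and featureCounts 1.5.0. The sources used here do not give read totals, thresholds, read shifting, duplicate handling or scaling.

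Member genes and lists were chosen with earlier results of these data known. Peaks within a gene span (RefSeq, GRCm38.p6) and 10 kb on either side were taken with Python 3.11.15, pandas 2.3.3 and scipy 1.17.1. All 26 pathway genes matched the table. Pairs were reciprocal highest overlapping peaks (ties by overlap, then position), and their log2 ratio was set against the median of 50 bins of summed pileup. Pathway genes named were up to 2 per role with the largest difference between list-only counts, ties by alphabet; Ifngr1 was named after its values were seen. All members are named. Gene-end peaks lay within 1000 bp of either end. Promoter sequences are from RefSeq. The steps were tested on simulated data. With 1 library per group no test was possible; each alternative is given below.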

Additional observations from a re-analysis of the deposited data

How the results depend on the processing

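With peaks of at least 20, Tle4cKO-only peaks at the class II loci fell to 6 and list-only peaks at the 26 pathway genes to 23. With gene spans alone, there remained 1 WT-only peak and 6 Tle4cKO-only peaks. Of 37 pairs, 5 passed 0.32 on the log2 scale, 4 higher and 1 lower, beside 12.1% and 12.9% of all pairs. The list-only share inside all gene spans was not computed. With 50 kb on either side the class II loci held 17 WT-only peaks, and the pathway genes 207 list-only peaks. Peak totals at 50 kb and at a pileup of at least 20 are not given here, so those counts have no share beside them. With a fold of 1.5, 2 of 69 pairs passed, 1 higher and 1 lower, beside 3.55% and 3.81% of all pairs. List-only peaks adjoining a shared or split region numbered 11 within 1000 bp and 3 within 200 bp. The other 19 recomputed values were counts within 1.5 times the main count or medians that moved by less than their interval, and the median relative log2 ratio stayed between 0.00 and 0.03. No paired analysis was possible because each genotype had 1 library. No replicate could be left out. The depth of the libraries is unknown, and the lowest deposited pileup of 7 limits what a list can hold, so a list-only peak does not show closed chromatin in the other library.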

Other observations

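Of the 6 promoter windows with AACNGATG followed by ATTGG at 15 to 30 bases, 3 belonged to members and the others to H2-Eb2, BC051142 and Gm35697. H2-Eb2 is a further class II beta chain gene beside H2-Eb1, and its window held pileups of 98 in WT and 61 in Tle4cKO. H2-Eb2 held 0 WT-only peaks of 10 and 1 Tle4cKO-only peak of 11, the latter with a pileup of 17. H2-Ea, a pseudogene in this strain's reference, held 0 of 7 and 0 of 6. No pair of either gene lay past 0.32 on the log2 scale, and the 11 pairs of both had a median relative log2 ratio of -0.03.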
